A study of Mus musculus with 6 samples.

Results

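The genes described here are 46 transcripts of ribosome biogenesis and of the MYC family in mouse Th17 cells. They were taken by symbol from the deposited table, which lists 16244 genes, and all 46 were present. All 46 also passed the filter on low values, a mean of at least 10 normalized reads over the libraries, which 11908 genes passed. By role they comprised 3 genes of the MYC network, 5 of RNA polymerase I transcription, 7 of small nucleolar ribonucleoprotein particles (snoRNPs), 4 abundant nucleolar proteins, 14 factors of small subunit assembly and 13 of large subunit assembly. The roles were assigned from general knowledge and not from these data.

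RNA-seq libraries of WT and RORγt N275D Th17 cells were compared, with 3 libraries per genotype. RORγt is the transcription factor that defines Th17 cells, and N275D replaces asparagine by aspartic acid in it. The mutant mice are knock-in animals on a C57BL/6 background. The methods state that another laboratory gave them, the paper's results that they were generated for the study, and its resource list names a company. WT C57BL/6 mice were purchased, listed as the substrain C57BL/6NJ, and littermate controls are mentioned only for cell transfers. The source of the mice and the genotype therefore cannot be told apart here. The labels give spleen as the source, and they give neither the age of the mice nor whether the mutation was carried on 1 or both alleles. The methods give an age range of weeks and both sexes for the study's mice in general, unless otherwise noted. They give no separate age for the mice behind these libraries. Naive CD4+ T cells of both genotypes were activated with anti-CD3 and anti-CD28 and cultured for 3 days under pathogenic Th17 conditions, for which IL-23 and IL-1β were added to IL-6, TGF-β and antibodies against IL-4 and IFN-γ. The results text names IL-6, IL-1β and IL-23 alone. The mutation was present throughout development of these cells. Neither the labels nor the methods say whether the libraries of 1 genotype came from separate mice or cultures, so the p-values measure the spread between these libraries, which may be technical.

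Ribosomes are assembled in the nucleolus. RNA polymerase I transcribes the precursor of most ribosomal RNA, snoRNPs modify it, and a large set of assembly factors folds, cleaves and exports the small and the large subunit. MYC and its relative MYCN bind DNA as dimers with MAX, at the E-box sequence CACGTG among others, and the genes of ribosome assembly are among the best known MYC targets. Naive T cells raise *Myc* and enlarge the nucleolus when they are activated, before they divide.

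The transcripts of ribosome assembly were lower in N275D cells, whereas *Myc* and *Mycn* were higher. Of the 46 genes, 43 were lower at an adjusted p under 0.05 by limma, against 26.1% of all genes tested. Another 2 were higher, against 24.7% of all genes tested, and 1 was not called. The median log2 fold change (N275D over WT) was -0.34 over the 46 genes and -0.0026 over the 11908 genes tested. *Mycn* alone was called at 2-fold or more, as were 3.59% of all genes tested. The 3 libraries of 1 genotype lay entirely on 1 side of the other 3 for every member. N275D was below in 43 members, against 29.6% of all genes tested, and above in 3, against 28.1%.

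**Figure D1:**
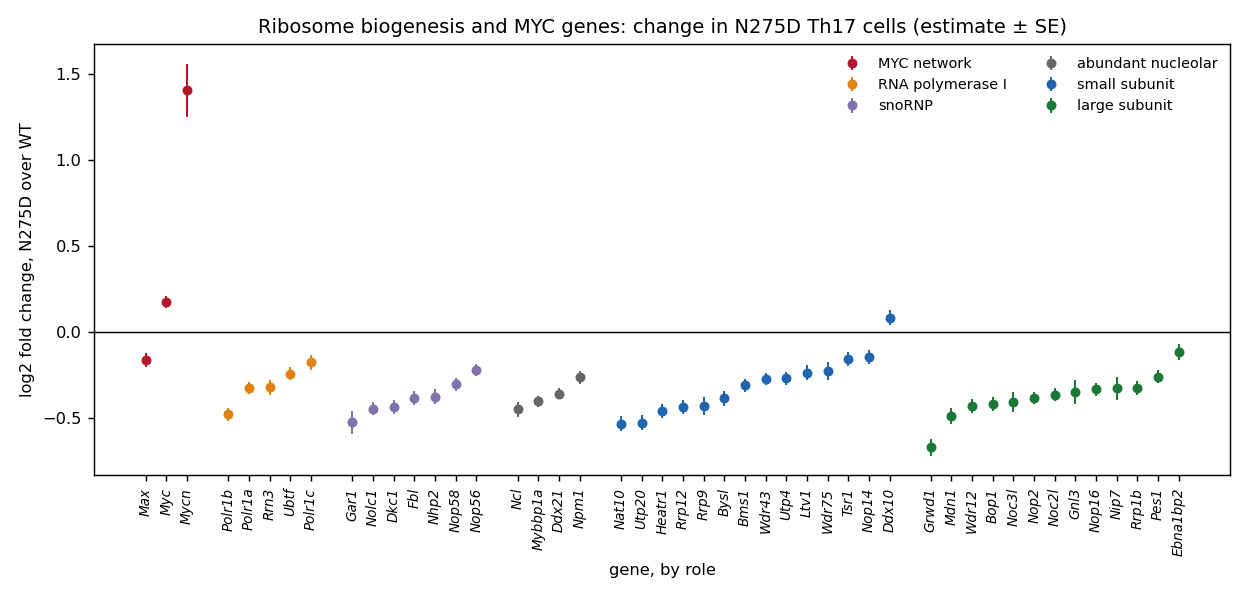
Log2 fold change (N275D over WT, vertical axis) of each of the 46 genes (horizontal axis, grouped by role), with points for the limma estimate and bars for its standard error. The 43 ribosome assembly genes lie between -0.67 (*Grwd1*) and 0.08 (*Ddx10*), and *Myc* and *Mycn* lie above 0.

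Promoter sequences were examined because MYC and MAX recognise the E-box. Promoters of 300 bases, from 250 bases before to 50 after the start of an annotated transcript in RefSeq (GRCm38.p6), were matched for 41 of the 46 members. None was available for *Myc*, *Fbl*, *Npm1*, *Rrp12* and *Bop1*, so whether they hold an E-box was not examined. The 41 matched members had 50 promoters, since 4 members had several, and a gene was counted if any of its promoters held the motif. The letters CACGTG, which read the same on both strands, occurred in 12 of these 41 (29.3%) and in 1143 of the 9582 tested genes with a promoter (11.9%). A match of the letters is a description and not evidence of binding. The stretches below, 5′ to 3′ on the strand of the gene with the E-box in capitals, are those of the members whose values are given for every library.
Max, chr12:76962234-76962263, minus strand: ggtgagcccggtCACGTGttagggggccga
Utp20, chr10:88826765-88826789, minus strand: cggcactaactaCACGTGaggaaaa
Mdn1, chr4:32657145-32657168, plus strand: gaattccttcacCACGTGtgtgtc
Grwd1, chr7:45830740-45830767, minus strand: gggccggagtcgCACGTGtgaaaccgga
*Rrn3*, which carries 2 E-boxes, was added after its values were seen.
Rrn3, chr16:13780472-13780501, plus strand: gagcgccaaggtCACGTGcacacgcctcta
Rrn3, chr16:13780639-13780668, plus strand: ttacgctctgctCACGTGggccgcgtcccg

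Of the 13 E-boxes in members, 9 began after the start of the transcript that defines the promoter, at most 40 bases downstream, and 3 began within 60 bases before it, of which that of *Max* spanned it. The other is the upstream E-box of *Rrn3*, 215 bases before its transcript start. The transcript start coincided with the edge of the whole gene as annotated in 8 of the 12 members, and it lay inside the gene by 5 bases in *Mdn1*, 37 in *Wdr43*, 75 in *Max* and 205 in *Grwd1*. The 12 members with an E-box included the member with the largest decrease, *Grwd1*. Their median log2 fold change was -0.30, and that of the matched members in which none was found was -0.35. Some of the latter were scanned only well inside the gene as annotated. The transcript start lay 385 bases inside it in *Bms1*, 1073 in *Noc3l*, 1355 and 1360 in *Noc2l*, 1684 in *Nat10* and 2787 or more in *Ubtf*. An E-box near the edge of these genes would have been missed, which limits the comparison of these medians. Over all genes tested, the medians were -0.07 with an E-box and 0.0035 without.

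The libraries were of similar depth, with 17659035 to 18510878 reads on genes, and the least abundant member, *Mycn*, had at least 30.5 normalized reads in each of them. The 8 listed markers of the labelled cell type summed to 74734 to 78800 normalized reads in WT and 86607 to 87335 in N275D. *Il17a* had 27166 to 27889 normalized reads in WT and 31814 to 32673 in N275D. *Cd4* had 8901 to 9520.1 in WT and 7575 to 7621 in N275D. *Il23r* was much less abundant, with 375 to 399 in WT and 589 to 685 in N275D. Of the 8 markers, 4 were called higher and 3 lower in N275D, against 24.7% and 26.1% of all genes tested. Markers of other cells were low. The sum over B cell markers (5 of 6 in the table) was 150 to 160 in WT and 214 to 273 in N275D, with *Ms4a1* at 0 in 2 WT libraries. CD8 T and natural killer markers (4 of 5 in the table) summed to 173 to 204 and to 256 to 272, with *Klrb1c* at 0 in all 3 N275D libraries and in 1 WT library. Myeloid markers (6 of 6) summed to 51.5 to 55.5 and to 52.2 to 61.9, which overlap, and *Csf1r* was at 0 in 1 WT library. Within that list, *Adgre1* was lower (log2 fold change -1.70, adjusted p = 0.00051) and *Cd14* higher (0.99, adjusted p = 0.0067) in N275D. The part of these cells in the results below was not tested. In bulk RNA, fewer cells of a type and less RNA per cell cannot be told apart, and the values are shares of each library's mRNA and not amounts per cell.

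Together the 46 genes held 1.71%, 1.69% and 1.73% of the normalized reads of the WT libraries. They held 1.39%, 1.39% and 1.36% of those of the N275D libraries. All N275D libraries lay below all WT libraries, with means of 1.71 ± 0.0238% and 1.38 ± 0.0202% (SD, n = 3 each), so the share was 19.2% lower. *Ncl* and *Npm1* alone accounted for a large part of these reads. Without this pair the shares were 1.05%, 1.04% and 1.05% in WT and 0.856%, 0.857% and 0.857% in N275D, again with no overlap.

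The 3 members of the MYC network moved in different directions. *Myc* (chromosome 15, 61985341 to 61990361), the main MYC family member of activated T cells, had 6156, 6285 and 6065 normalized reads in the WT libraries and 6956, 6826 and 7074 in the N275D libraries. Every N275D library was above every WT library, by a narrow margin relative to the level. Its log2 fold change was 0.17 (SE 0.03, adjusted p = 0.00058). *Mycn* (chromosome 12, 12936093 to 12941836), which binds the same E-boxes and is best known from the developing nervous system, had 38.4, 44.4 and 30.5 normalized reads in WT and 92.8, 107 and 102 in N275D. The mutant libraries stood far above the WT libraries, and the log2 fold change was 1.41 (SE 0.15, adjusted p = 1.67e-06). *Mycn* was nevertheless a minor transcript. Per kilobase of exon it had 35.9 normalized reads in N275D, against 2841 for *Myc*. *Max* (chromosome 12, 76937269 to 76962323), the obligate partner of both, had 2492, 2547 and 2594 normalized reads in WT and 2322, 2302 and 2202 in N275D. It was lower in each mutant library, with a log2 fold change of -0.16 (SE 0.04, adjusted p = 0.0035), although quantile normalization left it just short of the threshold (adjusted p = 0.054).

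Of 14 other genes of the network, 13 were tested, and 4 were higher and 4 lower, around a median of 0.01 on the log2 scale. Either count is 30.8% of the list, near the 24.7% higher and 26.1% lower over all genes tested. All 8 are named here, a choice made after their values were seen. The higher ones included 3 of the MAX partners that repress E-box genes. *Mxi1* had 683, 774 and 720 normalized reads in WT and 1496, 1589 and 1432 in N275D, with a log2 fold change of 1.05 (SE 0.06, adjusted p = 3.69e-10). It was the only gene of this list past 2-fold. *Mxd4* had a log2 fold change of 0.54 and *Mnt* of 0.37, and the mutant libraries of both lay above all WT libraries. *Usp28*, a deubiquitinase that stabilises MYC, rose from 151, 142 and 177 normalized reads to 251, 241 and 276 (log2 fold change 0.71, SE 0.10, adjusted p = 1.50e-05). The lower ones were *Mlx* (-0.28), the partner of the glucose-responsive MondoA branch, *Fbxw7* (-0.25), the ubiquitin ligase subunit that marks MYC for degradation, *Trrap* (-0.22), a scaffold of histone acetyltransferases that MYC recruits, and *Zbtb17* (-0.21), through which MYC represses genes. *Mxd3* (0.26, adjusted p = 0.054) and *Mga* (0.10, adjusted p = 0.150) were not called, but each passed the threshold under 2 of the alternatives, *Mxd3* among them when WT replicate 3 was left out and *Mga* (0.042) when WT replicate 2 was. *Mxd1*, *Mlxip* and *Mycl* had log2 fold changes of 0.01, 0.01 and -0.07 and were not called.

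**Figure D2:**
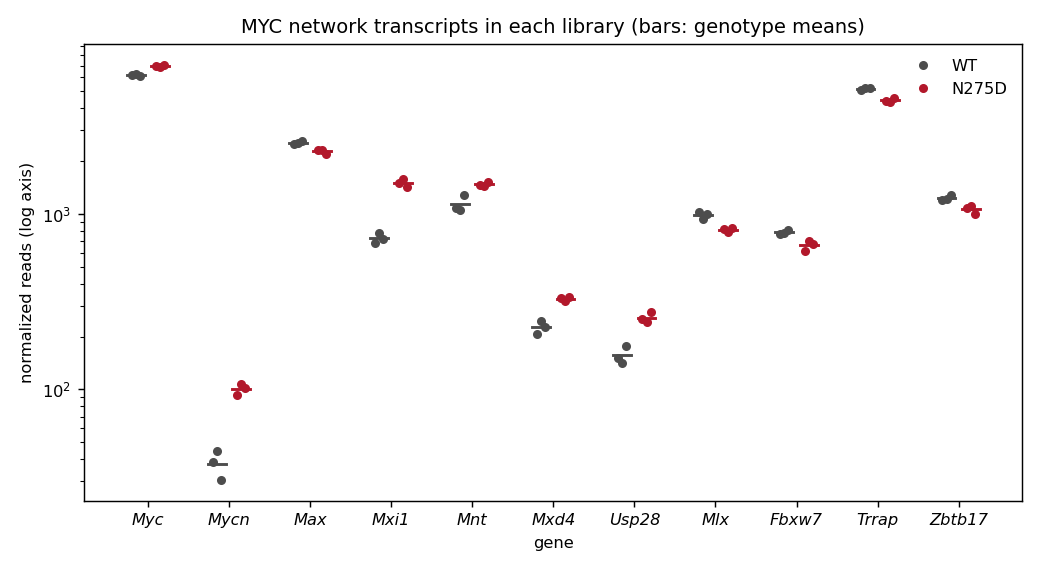
Normalized reads (vertical axis, log scale) of *Myc*, *Mycn*, *Max* and the 8 other MYC network genes that were called, in each WT (grey) and N275D (red) library, with a bar for each genotype mean. *Mxi1* lies at 683 to 774 in WT and 1432 to 1589 in N275D, and no gene drawn has overlapping genotypes.

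All 5 genes of RNA polymerase I transcription were lower, with log2 fold changes from -0.48 to -0.18 and a median of -0.32. *Polr1a* (chromosome 6, 71909053 to 71979435) encodes the largest subunit, which forms the catalytic centre with that of *Polr1b*. It had 5271, 5299 and 5551 normalized reads in WT and 4231, 4353 and 4276 in N275D. Its mutant libraries were close to each other and well below WT (log2 fold change -0.33, SE 0.04, adjusted p = 2.07e-06). *Polr1b* had the largest decrease of the group, from 2919, 2969 and 3009 to 2143, 2157 and 2083 normalized reads (log2 fold change -0.48, SE 0.04, adjusted p = 5.36e-08). The initiation factor *Rrn3*, which brings the polymerase to the promoter and links it to growth signals, had a log2 fold change of -0.32. *Ubtf*, which binds along the ribosomal RNA genes, had -0.24, and *Polr1c*, a subunit shared with RNA polymerase III, had -0.18. The mutant libraries of these 3 also lay below all WT libraries, each with an adjusted p of 0.0039 or less.

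The 7 snoRNP genes were all lower, with a median log2 fold change of -0.39 and a range from -0.53 to -0.22. *Gar1*, *Dkc1* and *Nhp2* belong to the H/ACA particles, which convert uridine to pseudouridine and are also part of telomerase. *Gar1* (chromosome 3, 129824912 to 129831407) had 1630.05, 1485 and 1777 normalized reads in WT and 1050.2, 1228 and 1115 in N275D. The genotypes stayed apart although both were spread (log2 fold change -0.53, SE 0.07, adjusted p = 6.14e-06). *Dkc1*, the pseudouridine synthase, had a log2 fold change of -0.44, and *Nhp2* had -0.38. The box C/D particles, which add methyl groups to ribose, were represented by *Fbl*, the methyltransferase (-0.39), and by its scaffolds *Nop58* (-0.30) and *Nop56* (-0.22). *Nolc1* (chromosome 19, 46075847 to 46085543), a chaperone of both kinds of particle, had the most reads of the group. It fell from 8858, 9356 and 9078 normalized reads to 6729, 6865 and 6425 (log2 fold change -0.45, SE 0.04, adjusted p = 6.63e-08).

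The 4 abundant nucleolar proteins were lower as well, with log2 fold changes from -0.45 to -0.26. Nucleolin, encoded by *Ncl* (chromosome 1, 86344719 to 86359455), binds nascent ribosomal RNA. It had 63494, 63488 and 71596 normalized reads in WT and 49612, 49392 and 46315 in N275D. WT replicate 3 was above the other WT libraries, yet all 3 exceeded every mutant library. The log2 fold change was -0.45 (SE 0.04, adjusted p = 4.78e-07) and -0.39 without WT replicate 3. *Npm1*, nucleophosmin, a chaperone of the outer nucleolus, had 55043, 52945 and 52036 normalized reads in WT and 45313, 45775 and 42254 in N275D. Its log2 fold change was -0.26 (SE 0.04, adjusted p = 1.85e-05). *Npm1* has processed pseudogenes of near-identical sequence, and how reads shared with them were counted is not stated in the sources used here, so its value is uncertain. The RNA helicase *Ddx21* fell by 0.36 and *Mybbp1a*, a partner of RNA polymerase I, by 0.40 on the log2 scale. Per kilobase of exon, *Npm1* was the highest of the 46 genes, with 26264 normalized reads in WT, and *Mycn* the lowest, with 13.5.

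Of the 14 small subunit factors, 13 were lower and 1 was not called, and the median log2 fold change was -0.29. *Utp20*, *Heatr1*, *Utp4*, *Wdr43* and *Wdr75* belong to the processome that forms on the nascent precursor. *Utp20* (chromosome 10, 88746607 to 88826814) had 4823, 4949.9 and 4609.8 normalized reads in WT and 3265, 3197 and 3523 in N275D. This was a fall to 69.4% of the WT mean (log2 fold change -0.53, SE 0.04, adjusted p = 6.50e-08). *Heatr1* (chromosome 13, 12395375 to 12438893), which also supports transcription of the ribosomal RNA genes, had 5652, 5666 and 5229 in WT and 3895, 4086 and 4029 in N275D. All its mutant libraries were lower by a wide margin (log2 fold change -0.46, SE 0.04, adjusted p = 1.29e-07). The log2 fold changes of *Wdr43*, *Utp4* and *Wdr75* were -0.27, -0.27 and -0.23. *Nat10* (chromosome 2, 103721258 to 103762954), which acetylates cytidines of small subunit RNA, had 2703, 2823 and 2958 normalized reads in WT and 1974, 1944 and 1939 in N275D. The mutant libraries differed among themselves by little, and the log2 fold change was -0.53 (SE 0.04, adjusted p = 4.42e-08).

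Among the other small subunit factors, *Rrp12*, which serves export, had a log2 fold change of -0.44 and *Rrp9*, a component of the U3 snoRNP, had -0.43. *Bysl* (-0.39), the GTPase *Bms1* (-0.31) and *Ltv1* (-0.24) were also lower. *Tsr1* (-0.16) and *Nop14* (-0.15) showed the smallest of the called decreases in this group, and under quantile normalization neither passed (adjusted p = 0.063 and 0.091). *Ddx10*, an RNA helicase of the processome, was the exception. It had 1871, 1827 and 1911 normalized reads in WT and 1988, 1913 and 2044 in N275D. The lowest mutant library exceeded the highest WT library by under 2 reads, and the difference was not called (log2 fold change 0.08, SE 0.04, adjusted p = 0.116). Quantile normalization put it past the threshold as higher (adjusted p = 0.014), and so did leaving out WT replicate 3 (0.036).

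All 13 large subunit factors were lower, and their median log2 fold change was -0.36. *Grwd1* (chromosome 7, 45825223 to 45830994), a histone and ribosomal protein chaperone, had the largest decrease of the 46 genes. It had 2002, 1835 and 1988 normalized reads in WT and 1249.9, 1246 and 1164 in N275D, or 62.8% of the WT mean (log2 fold change -0.67, SE 0.05, adjusted p = 1.52e-08). *Mdn1* (chromosome 4, 32657114 to 32775217), the giant ATPase that removes assembly factors from the particle, had 6010.5, 6114 and 6172 in WT and 4060.1, 4281 and 4730.5 in N275D. Its mutant libraries were more spread than the WT libraries but did not reach them (log2 fold change -0.49, SE 0.05, adjusted p = 3.90e-07). *Noc2l* (chromosome 4, 156234655 to 156247616) had the most reads of the group, with 7339.8, 7058 and 7716 in WT and 5861, 5634 and 5673 in N275D (log2 fold change -0.36, SE 0.04, adjusted p = 1.16e-06). Its partner in assembly, *Noc3l*, had -0.41.

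*Pes1*, *Bop1* and *Wdr12* form the PeBoW complex, which is needed for processing of large subunit RNA, and all 3 were lower. *Wdr12* had a log2 fold change of -0.43, *Bop1* of -0.42 and *Pes1* of -0.26. The RNA methyltransferase *Nop2* (-0.38), *Nop16* (-0.33), *Nip7* (-0.33) and *Rrp1b* (-0.33) fell by similar amounts. *Nip7* rested on uneven mutant libraries, with 1872, 1883 and 1938 normalized reads in WT and 1638, 1317 and 1599 in N275D. Without N275D replicate 2 its log2 fold change was -0.23. *Gnl3*, the GTPase nucleostemin of proliferating cells, had 2606, 2706 and 2112 in WT and 1896, 1928 and 1973 in N275D. WT replicate 3 was low for it, and its log2 fold change was -0.35 with all libraries, -0.46 without that library and -0.28 without WT replicate 2. *Ebna1bp2* had the smallest decrease, with 2871, 2697 and 3065 normalized reads in WT and 2646, 2693 and 2623 in N275D. The highest mutant and the lowest WT library nearly met, and the call (log2 fold change -0.11, SE 0.05, adjusted p = 0.046) was lost under 11 of the 16 alternatives, with adjusted p between 0.061 and 0.403. These included leaving out any 1 library other than WT replicate 2, after which adjusted p lay between 0.083 and 0.131. Without WT replicate 3 the log2 fold change was -0.07.

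**Figure D3:**
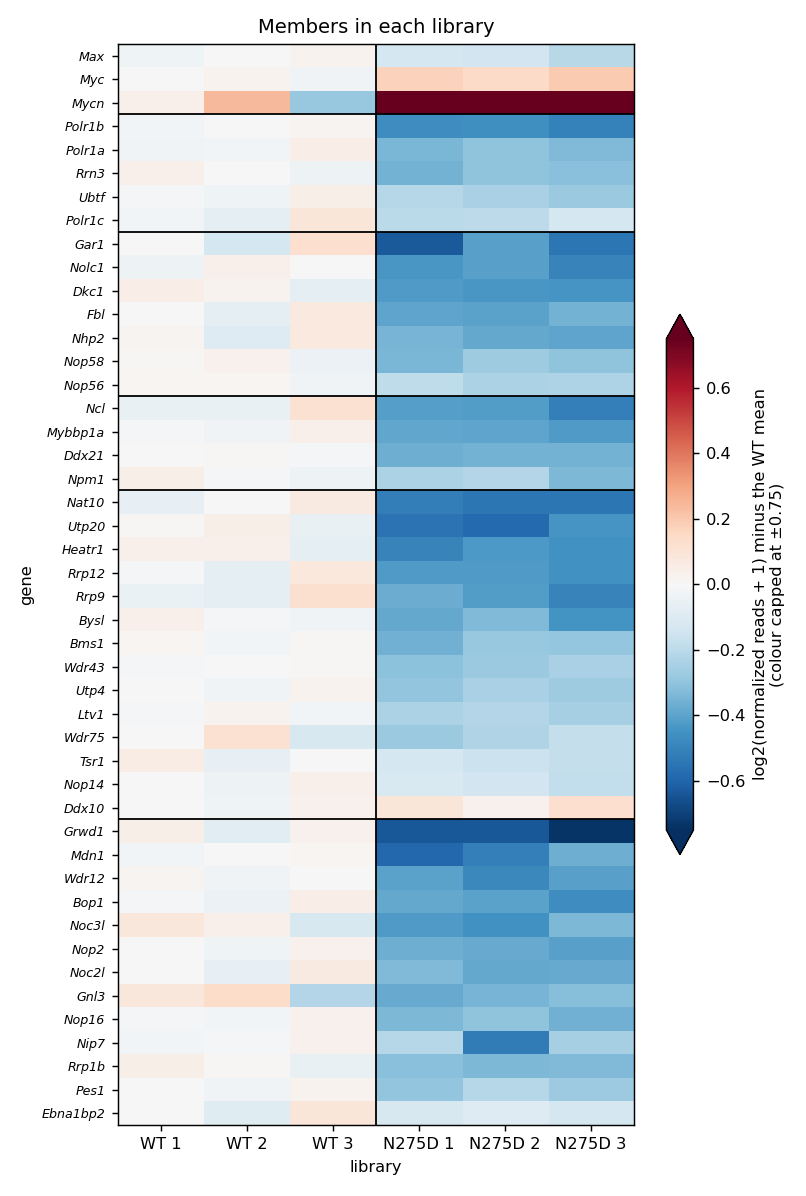
Each of the 46 genes (rows, grouped by role) in each of the 6 libraries (columns), coloured by log2(normalized reads + 1) minus the mean of the WT libraries, with colours capped at 0.75 in either direction. The rows of ribosome assembly genes are blue in all 3 N275D libraries except *Ddx10*, and the median member of the N275D libraries lies at -0.35, -0.34 and -0.34.

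The shift was of similar size in the 3 mutant libraries. Relative to the WT mean, the median member stood at -0.35, -0.34 and -0.34 in N275D replicates 1, 2 and 3 and at -0.0008, -0.01 and 0.02 in the WT libraries on the log2 scale. WT replicate 3 was the highest WT library for 25 members and the lowest for 16. The counts were 11 and 8 for WT replicate 1 and 10 and 22 for WT replicate 2. WT replicate 3 was thus the WT library most often at an extreme, though not to 1 side. Leaving it out raised the calls over all genes tested to 3301 lower and 3095 higher, from 3109 and 2947. Leaving out any other library lowered both counts. The median SD within a genotype was 0.05 for the members and 0.08 for all genes tested, and the largest was 0.20, for *Mycn*. The 46 genes lie on 19 chromosomes. Over the 43 ribosome assembly members, which share these 6 libraries, the log2 fold change had a Spearman correlation of 0.08 with the level per kilobase and of -0.23 with exon length, given as a description.

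Ribosome assembly genes outside the 46 were taken from 5 lists written by role, for which 130 genes were found and tested. The lists were chosen with earlier results of these data known. Of the 130 genes, 93 were lower (71.5%) and 2 were higher, against 26.1% and 24.7% of all genes tested. Their median log2 fold change was -0.25. The 12 other snoRNP genes had 11 lower and a median of -0.32, led by the assembly factors *Znhit6* (-0.56) and *Naf1* (-0.55). The 43 other small subunit factors had 33 lower and none higher, with a median of -0.28 and the largest decreases in *Pwp2* (-0.64) and *Nol6* (-0.54), both processome components. The 45 other large subunit factors had 32 lower and 2 higher, with a median of -0.23. *Ddx31* (-0.62) and *Urb1* (-0.61) fell most, while *Nop53* (0.23) and *Surf6* (0.15) rose. The increase of *Surf6* lost its call without WT replicate 1, N275D replicate 1 or N275D replicate 2, with adjusted p between 0.051 and 0.071. The 15 exosome subunits and exonucleases, which trim the precursors, had 11 lower, with a median of -0.23, and *Exosc7* (-0.37) and *Mphosph6* (-0.34) fell most.

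RNA polymerase I was the list with the fewest calls among these. Of its 15 other genes in the table, 6 were lower (40.0%), against 26.1% of all genes tested, and 9 were not called. The median log2 fold change was -0.11. *Polr2l* (-0.52), a small subunit of all nuclear RNA polymerases, and *Cd3eap* (-0.49), an RNA polymerase I subunit, had the largest decreases.

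MYC targets outside the ribosome were taken as a list of 28 genes of polyamine, nucleotide, amino acid, mitochondrial, cell cycle, translation and other functions. The translation factors in it were *Eif4e*, *Eif4a1* and *Eif5a*, all lower. Of the 28 genes, 21 were lower (75.0%) and 4 higher, against 26.1% and 24.7% of all genes tested. The median log2 fold change was -0.22. *Srm*, spermidine synthase, had 6167, 5944 and 6498 normalized reads in WT and 4533, 4535 and 4226 in N275D (log2 fold change -0.48, SE 0.04, adjusted p = 1.14e-07). *Odc1*, which acts before it in the polyamine pathway, went the opposite way. It had 23869, 22778 and 22472 in WT and 29994, 29538 and 29710.1 in N275D (log2 fold change 0.37, SE 0.03, adjusted p = 1.47e-07). *Slc3a2*, the shared heavy chain of several amino acid transporters, also rose (0.44), while *Hspe1*, a mitochondrial co-chaperonin, fell (-0.46). The call for *Hspe1* was lost when the variance prior had no trend (adjusted p = 0.064), and its WT libraries ranged from 4484 to 6582 normalized reads.

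**Figure D4:**
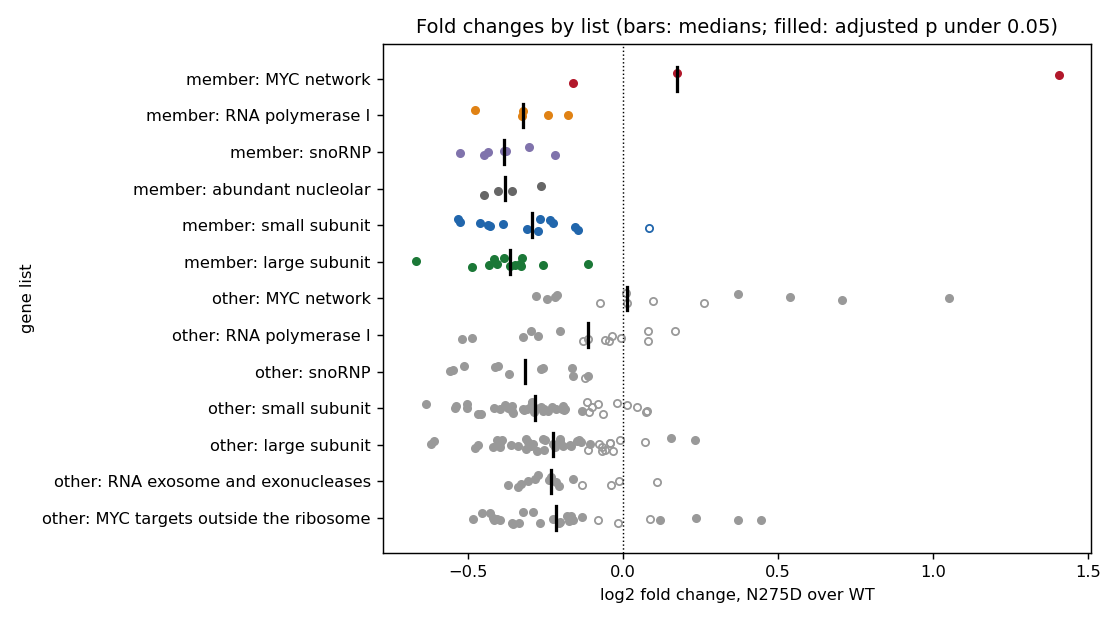
Log2 fold changes (N275D over WT, horizontal axis) of single genes in the role classes of the 46 genes and in the other lists (vertical axis), with filled points for an adjusted p under 0.05, open points for others and a bar for each median. The medians of the 5 ribosome assembly classes of the 46 genes lie between -0.39 and -0.29, and those of the 5 other ribosome lists between -0.32 and -0.11.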

How the data were processed

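RNA-seq libraries of WT and RORγt N275D Th17 cells (3 each) took their genotype and replicate number from the labels. Per the study's methods, the authors trimmed the reads, used STAR for alignment to mm10, featureCounts for counting and DESeq2 for the comparison, with versions not given in the sources used here. The methods describe DNBSEQ strand-specific mRNA libraries, and the labels poly-A selection with a NEBNext directional kit. The deposited values, of the unit signal, are gene-level reads that the authors scaled by a single factor for each library, and 100% were whole multiples of it within 1e-06 in all 6 libraries. The deposited table also holds the authors' log2 fold changes, q-values and group averages, which were not used. Depth was 17659035 to 18510878 reads on genes.

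The log2 of normalized reads, after adding a pseudocount of 1, was analysed, which understates the fold changes of low genes. Genes with a mean of at least 10 were tested with limma (version 3.58.1, R 4.3.3) with a trended prior and no block, and adjusted by the Benjamini-Hochberg method over all 11908. An exact two-sided permutation test of 3 against 3 libraries cannot give a p below 0.1. The code was tested on simulated data. Alternatives were pseudocounts of 0.1 and 10, minimum means of 100 or just above 0, quantile or TMM scaling, no trend, a replicate block, each library left out, and edgeR (version 4.0.16) or DESeq2 (version 1.42.0) on the recovered reads. edgeR called 3033 genes lower and 3052 higher, and limma 3109 and 2947. DESeq2 called fewer, 2610 lower and 2468 higher.

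The members and lists were chosen with earlier results of these data known. Values in every library are given for *Myc*, *Mycn* and *Max*, the 5 largest called increases and decreases whose genotypes did not overlap, and the member with the most reads in each role class. Those of *Polr1b*, *Npm1*, *Ddx10*, *Nip7*, *Gnl3* and *Ebna1bp2* were added after their values were seen. Of other lists, the 2 largest called increases and decreases are named. Exon lengths are unions of exons over the annotated transcripts of each gene in GENCODE vM21 (GRCm38). They can exceed the length of a single mRNA, so levels per kilobase and correlations with length are approximate. Coordinates and promoters are from RefSeq on GRCm38.p6, the build mm10. Counting of reads shared by overlapping genes is not given in the sources used here. A marker gene of the labelled cell type is not reported here.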

Additional observations from a re-analysis of the deposited data

How the results depend on the processing

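Between 39 (quantile normalization) and 43 members were called lower over all alternatives, and edgeR and DESeq2 on the recovered reads gave 42 each. Of 735 pairs of a member and an alternative, 719 kept the direction and the side of the threshold, and the 5 members that changed were *Max*, *Nop14*, *Tsr1*, *Ebna1bp2* and *Ddx10*. No called gene that the text names reversed. Quantile normalization moved 5 further called values by over 1.5 times without ending the call, to log2 fold changes of -0.17 (*Pes1*), -0.11 (*Polr1c*), -0.15 (*Ubtf*), -0.18 (*Wdr43*) and -0.12 (*Trrap*). With a mean of at least 100 required, *Mycn* was no longer tested, so that 1 member was called higher and 0 at 2-fold. The median log2 fold change of the members was -0.28 with quantile normalization and ranged from -0.36 to -0.34 when single libraries were left out. The difference in their share of reads ranged from -0.34 to -0.32 percentage points in the same way. The 2 increases among other ribosome assembly genes became 4 without WT replicate 3 and 1 without N275D replicate 1 or 2, and the decreases among them lay between 87 and 101 with single libraries left out and were 84 with quantile normalization and 82 with no trend. The median of all genes tested moved by under 0.03 under every alternative.

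The replicate numbers were not found to pair the libraries: deviations of same-numbered libraries from their genotype means correlated at -0.05, 0.04 and -0.08. With the replicate number as a block, 42 members were lower and 2 higher, *Ebna1bp2* having an adjusted p of 0.070. The causes of these changes were not tested. With 3 libraries per genotype and no measure of total RNA per cell, small differences such as those of *Ddx10* and *Ebna1bp2* are at the limit of these data.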
